A study of Danio rerio with 12 samples.

Results

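The genes of the cytosolic ribosomal proteins were examined in RNA of adult zebrafish retina. Members were the gene symbols in the deposited expression table that begin with rpl or rps followed by a digit or the letter p, without the S6 kinases (symbols beginning with rps6k). The pattern matched 82 of 32674 genes, 10 of them S6 kinases, and so gave 72 members, 41 named for the large subunit and 31 for the small subunit. Of the 32674 genes 20495 carried a symbol. Any ribosomal protein gene without a symbol, or under another name, therefore counts among the other genes, and the members are not the whole ribosome. The fish were of the EK strain and of the F3 generation in a pair of lineages. In the MeHg lineage the eggs of the F1 generation had spent 24 h in 0.03 µM methylmercury (MeHg, an organic mercury compound). In the control lineage the F1 eggs were at 0 µM with the ethanol vehicle, and no later generation of either lineage was exposed. The labels do not give the sex, age in months or number of fish behind a library, and the series' design text calls the samples of a lineage biological replicates. Of 12 labelled samples, 11 had a named column: control lineage numbers 3, 4, 5, 7 and 8, and MeHg lineage numbers 2 to 7. Values are FPKM, fragments scaled for transcript length and library size, which set genes of different length on the same scale.

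Each ribosome is built from a small subunit, which decodes the mRNA, and a large subunit, which joins amino acids. Each subunit holds ribosomal RNA and one copy of nearly every ribosomal protein, so cells make these proteins in matched amounts. In vertebrates their mRNAs begin with a tract of pyrimidines (the TOP motif), through which mTOR signalling and the RNA-binding protein Larp1 control their translation together. In retina, as in other tissues, they are among the abundant mRNAs.

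The name of the group held for nearly all members, with exceptions. A second gene carrying the symbol rpl37 (ENSDARG00000076360) is named coa1, an assembly factor of mitochondrial cytochrome oxidase, in the reference list of names. The gene rps19bp1 encodes a protein that binds Rps19 and is no subunit, and the human counterpart of rpl7l1 sits in precursors of the large subunit. The reference list gave 71 of the 72 a name of the same pattern. These include rps19bp1 and rpl7l1, so the count does not show which members are subunits. Members that the reference names but the symbol column does not, such as rpl29, are described apart. No sequence is printed, because no sequence table of this genome was used here.

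The members split by level into 67 genes averaging 200 FPKM or more across the 11 libraries and 5 genes below that level, a line drawn after the values were seen. The 67 abundant genes, 38 of the large and 29 of the small subunit, had control lineage means from 296 FPKM (rpl38) to 1329 FPKM (rps2), with a median of 713 FPKM. In the MeHg lineage their means ran from 288 to 1193 FPKM, with a median of 672 FPKM. The 5 genes with the highest mean were rps2, rpl31, rplp0, rpl35 and rps20. Transcripts of rps2, a small-subunit protein, stood at 1493, 994, 1304, 1355 and 1500 FPKM in control libraries 3, 4, 5, 7 and 8. In the MeHg lineage rps2 had its lowest value at 766, a median of 1022 and its highest at 2027 FPKM. The MeHg range enclosed the whole control range. The same held for rplp0, the base of the ribosomal stalk, with 1405, 780, 1044, 1069 and 1228 FPKM in the controls and 700 to 1587 FPKM in the MeHg libraries. Among the 5 genes under 200 FPKM were rpl22l1, rpl7l1, rps19bp1 and the second rpl37. These levels rest on 2838157 to 6749621 assigned fragments per library, of which 71109 to 189037 came from members, and no abundant member had fewer than 263 fragments in any library.

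**Figure D1:**
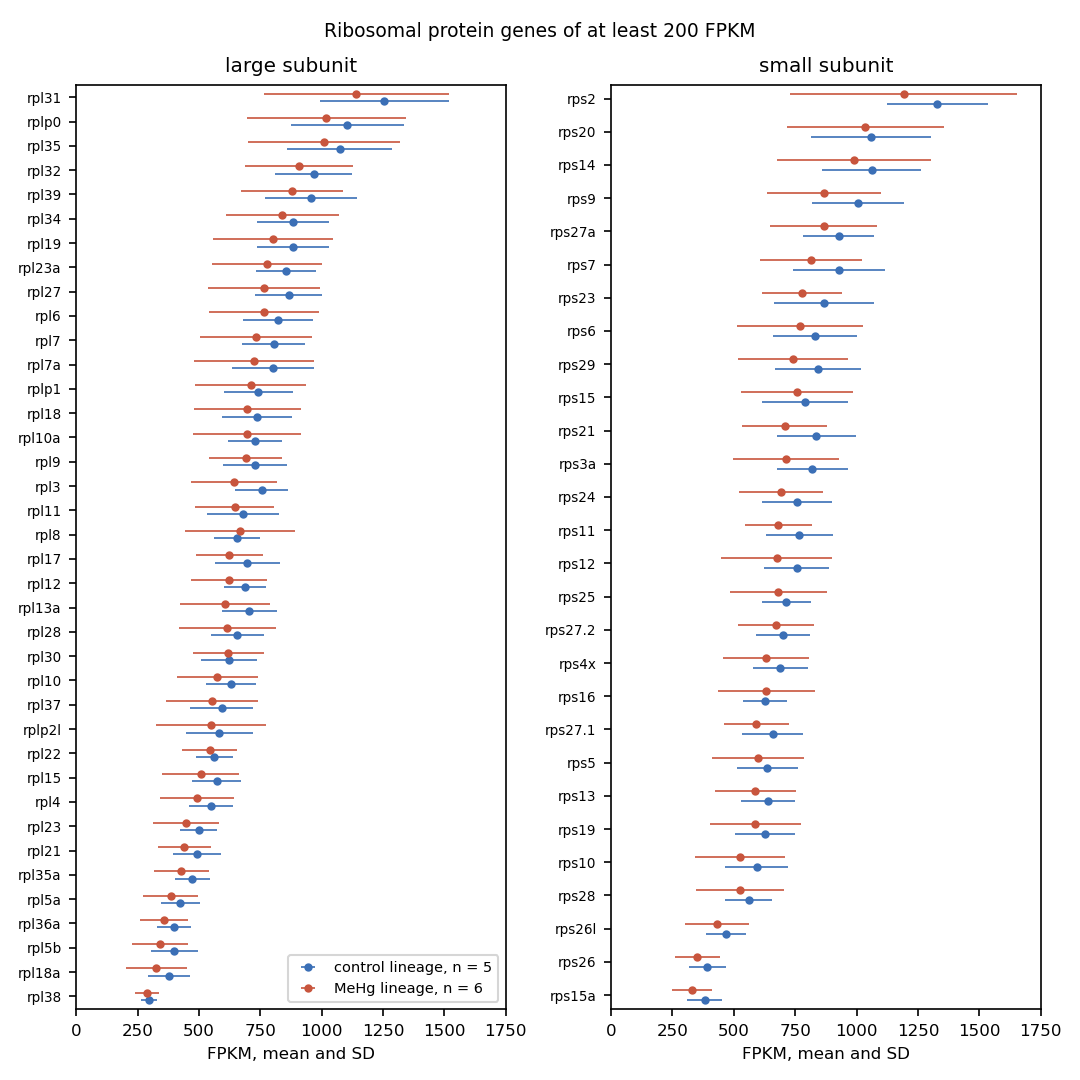
Mean FPKM with SD of the ribosomal protein genes of at least 200 FPKM that are reported by name, by subunit, for the control lineage (blue, n = 5) and the MeHg lineage (red, n = 6). The SD bars of the lineages overlap for every gene drawn, and the MeHg mean is the lower one for most.

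No ribosomal protein gene passed the test between the lineages. All 72 passed the filter on low values (averages under 0.5 FPKM were left out), and 0 of the 72 reached an adjusted p under 0.05 in the fit over 20320 genes (limma on log2(FPKM + 1), Benjamini-Hochberg adjustment), whereas 8.98% of all genes tested did (5.47% higher and 3.5% lower in the MeHg lineage). At an unadjusted p under 0.05 there were 2 members, rpl7l1 and rpl22l1, against 24.1% of all genes. Among 342 other genes of at least 200 FPKM, 60 were called (17.5%). In 0 of the 72 members were the values of the lineages free of overlap, a separation that 7.52% of all genes tested showed. No count test was run, since the deposited fragment table does not hold whole counts throughout.

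The differences that missed the test were small and mostly of the same sign. In 71 of the 72 the MeHg minus control difference was negative, against 48.5% of all genes tested. The median was -0.15 on the log2(FPKM + 1) scale, beside 0.02 for all genes. The large-subunit members had a median of -0.17 and the small-subunit members -0.15. The abundant members ran from -0.26 (rpl3, which lines the peptidyl transferase centre) to -0.02 (rpl30), with standard errors of 0.15 to 0.26. The 95% intervals of these 67 reached down to -0.81 and up to 0.45. Since the members share the shifts of each library described next, their common sign is not repeated evidence. The size, and in some fits the sign, also depended on scaling, depth and the libraries used. After rescaling by the median of ratios 72 of 72 were negative with a median of -0.22, or -0.18 relative to all genes. With a weight fitted for each library 71 of 72 were negative with a median of -0.22, also -0.22 relative to all genes. When each library was rescaled to the same FPKM sum, 53 of 72 were negative with a median of -0.04, while the median of all genes moved to 0.11, so that the members stood at -0.15 relative to it. With log2 depth as a covariate 35 of 72 were negative with a median of 0.000881, beside 0.07 for all genes, or -0.06 relative to it. On the 8 libraries whose number occurs in both lineages, 43 of 72 were negative with a median of -0.02. The median of all genes was 0.03 there, which put the members at -0.05 relative to it. Leaving out 1 library gave a median of -0.27 without MeHg library 4 and -0.26 without control library 4. It gave -0.10 without control library 3 or 8, -0.09 without MeHg library 5 and -0.08 without MeHg library 6. Members made up 6.80% ± 1.32 of summed FPKM in the control lineage (SD, n = 5) and 6.77% ± 2.16 in the MeHg lineage (SD, n = 6).

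Control libraries 5 and 7 carried egg transcripts, so the comparison was repeated without them. The summed level of 27 oocyte markers was 2446 and 4809 FPKM in these libraries and 2.65 to 10.2 FPKM in the other 9. Without them 1 of 72 members passed, against 8.28% of 19697 genes (3.64% higher and 4.65% lower). At an unadjusted p under 0.05 there were 2, among them rpl22l1, against 20.6% of all genes. The median of the members was then -0.16, beside -0.00316 for all genes, and 71 of 72 were again negative, against 50.3% of all genes. The share of summed FPKM was then 6.16% ± 1.33 in the 3 controls left (SD), below the 6.77% of the MeHg lineage by less than the spread between libraries.

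**Figure D2:**
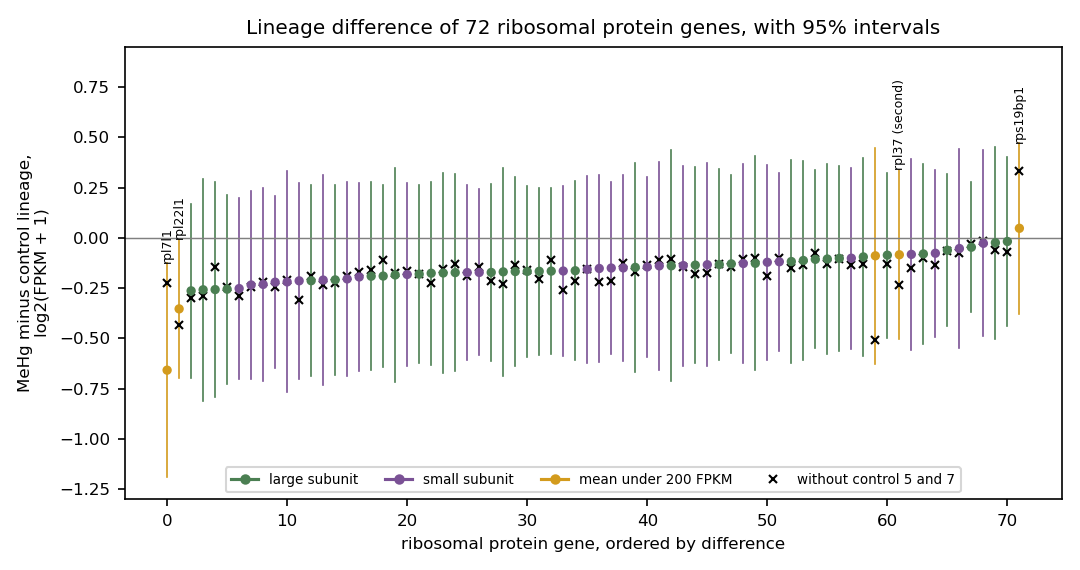
MeHg minus control lineage difference of the 72 members on the log2(FPKM + 1) scale, ordered by size, with 95% intervals of the moderated standard error; crosses give the fit without control libraries 5 and 7. The intervals of all 67 abundant members include 0, and the crosses lie near the points except for low-level genes such as rpl7l1 and rps19bp1.

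Among the abundant members with the smallest p were rpl3, rps21 and rpl13a. The level of rpl3 was 872, 614, 744, 697 and 851 FPKM in control libraries 3, 4, 5, 7 and 8, and 449 to 952 FPKM with a median of 612 in the MeHg lineage. Every control lay within the MeHg range, and MeHg library 4 was above them all. The difference of rpl3 was -0.26 ± 0.20 (SE; limma adjusted p = 0.443). For rps21, a small-subunit protein, it was -0.25 ± 0.21 (SE; limma adjusted p = 0.478). For rpl13a, which in human cells also silences certain mRNAs after interferon treatment, it was -0.26 ± 0.22 (SE; limma adjusted p = 0.496).

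These genes varied together from library to library within each lineage. Relative to each gene's own mean over the 11 libraries, the median member stood at 0.30, -0.32, 0.12, 0.04 and 0.30 on the log2 scale in control libraries 3, 4, 5, 7 and 8. In MeHg libraries 2 to 7 it stood at -0.03, 0.19, 0.52, -0.38, -0.49 and -0.24. MeHg library 4 was thus the highest and MeHg library 6 the lowest of all, and control library 4 lay among the low MeHg libraries. Large-subunit and small-subunit members gave nearly the same profile, with 0.52 and 0.50 in MeHg library 4 and -0.50 and -0.48 in MeHg library 6. As a share of summed FPKM, members took 10.6% in MeHg library 4 and 4.60% in MeHg library 6, and 4.67% to 8.22% in the controls. The 8.22% was in control library 7, which carried egg transcripts. Control libraries 3, 4 and 8 had 6.64%, 4.67% and 7.19%.

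**Figure D3:**
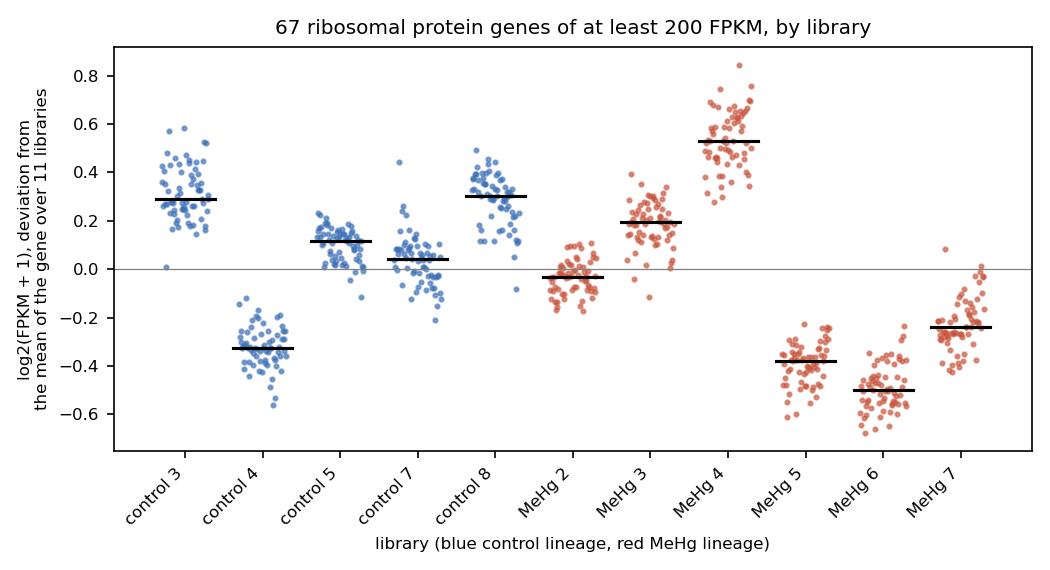
Deviation of each of the 67 abundant members from its own mean over 11 libraries, log2(FPKM + 1), with 1 point per gene and a bar at the median. The points of a library move together, from near 0.5 in MeHg library 4 to near -0.5 in MeHg library 6.

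Nearly every gene followed this profile. MeHg library 4 had the highest value of the MeHg lineage in 67 of the 67 abundant members and the highest of all 11 libraries in 57. MeHg library 6 was the lowest MeHg library in 52 of them and MeHg library 5 in 13. Control library 4 was the lowest control in 66 of 67, and the highest control was library 3 in 34 and library 8 in 32. Between MeHg libraries 4 and 6 the fold was 2.12 in the median member, from 1.49 to 2.65 over the 67. The SD of an abundant member within a lineage was 0.35 in the median (0.21 to 0.46, log2 scale). After the library's median over the members was subtracted, it was 0.09 (0.04 to 0.20). This fall is a description, since the median comes from the same genes. For the 342 other genes of that level the SD was 0.41, and 0.28 after their own library median was subtracted. These SDs include control libraries 5 and 7, where the median of the 342 stood at -0.11 and -0.64. SDs without them are not given here. The closest followers were rps9, rpl27 and rps3a, with a remaining SD of 0.04, 0.04 and 0.05. The loosest of the 67 was rpl5b at 0.20. In a bulk sample, fewer cells of a type and less RNA per cell cannot be told apart.

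Relative to one another no member passed the test either. After each library was rescaled to the same median over the members, an alternative chosen after seeing the data, 0 of 72 passed either at an adjusted p under 0.05 or at an unadjusted p under 0.05, against 4.54% (3.26% higher and 1.28% lower) and 19.7% of 20317 genes. The relative differences of the 67 abundant members then spanned -0.10 (rpl3) to 0.14 (rpl30) on the log2 scale. This scaling moved the median of all genes to 0.15. The test could not resolve small relative differences, because its standard errors borrow from the spread of other genes. For rps9 the standard error was 0.14, although its SD after the library median was 0.04. The median SD of the 342 other abundant genes was 0.57 once the members' library median was subtracted. The empty count therefore does not show that the members kept fixed proportions.

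Some members were taken for their role after the values were seen. In the ribosomal stalk, which recruits translation factors, rplp1 and rplp2l had differences of -0.09 ± 0.23 and -0.14 ± 0.26 (SE), beside -0.15 ± 0.24 for rplp0. In the particle that carries 5S ribosomal RNA, and that in mammals holds Mdm2 when free, rpl5a, rpl5b and rpl11 gave -0.17 ± 0.22, -0.26 ± 0.25 and -0.08 ± 0.21 (SE). The substrate of the S6 kinases, rps6, averaged 830 ± 170 FPKM in the 5 controls and 770 ± 255 FPKM in the 6 MeHg libraries (SD). The transcript of rps19, the gene most often mutated in human Diamond-Blackfan anaemia, was at 628 ± 122 and 587 ± 186 FPKM. Ubiquitin is made as a fusion with Rps27a, and that transcript was at 927 ± 144 and 866 ± 217 FPKM. None of these passed (limma adjusted p from 0.552 for rpl5b to 0.844 for rpl11).

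Among the low-level members, rpl7l1 departed from the common profile and rpl22l1 followed it in part. The biogenesis-linked rpl7l1 stood at 28.9, 24.6, 46.5, 65.4 and 23.3 FPKM in control libraries 3, 4, 5, 7 and 8 and at 18.4 to 26.2 FPKM, median 21.3, in the MeHg lineage. Its high values were in control libraries 5 and 7, the ones with egg transcripts, and the other controls overlapped the MeHg libraries. The difference was -0.66 ± 0.24 (SE; limma unadjusted p = 0.0193, adjusted p = 0.125), and -0.22 (adjusted p = 0.429) without libraries 5 and 7. The part of the egg RNA in this difference was not tested.

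The paralog of rpl22, rpl22l1, was at 187, 116, 149, 136 and 203 FPKM in the controls and at 108 to 142 FPKM, median 118, in the MeHg lineage. Control libraries 3, 5 and 8 lay above every MeHg library, and control libraries 4 and 7 within their range. As in most abundant members, control library 4 was the lowest control and MeHg library 4 the highest of its lineage. The lowest MeHg value was in library 7, not in library 6. The difference was -0.35 ± 0.16 (SE; limma unadjusted p = 0.0462, adjusted p = 0.200), and -0.43 ± 0.18 (adjusted p = 0.211) without control libraries 5 and 7. It passed in none of the alternative fits (smallest adjusted p 0.0885, with 1 library left out).

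For the remaining low-level members, which the names above set apart from the subunits, the lineages differed with all 11 libraries by less than the spread between libraries. The Rps19-binding protein gene rps19bp1 averaged 20.2 ± 6.10 FPKM in the controls and 20.4 ± 3.43 FPKM in the MeHg lineage (SD), the 1 member with a positive difference (0.05 ± 0.20, SE). Its highest control values, 27.4 and 25.6 FPKM, were in control libraries 5 and 7. Without these libraries the difference of rps19bp1 was 0.33 ± 0.17 (SE; limma adjusted p = 0.319), and that of the second rpl37 was -0.24 ± 0.19 (SE; limma adjusted p = 0.554). The second rpl37 was at 17.0 ± 4.56 and 15.7 ± 2.74 FPKM, while the first was at 592 ± 129 and 554 ± 188 FPKM.

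**Figure D4:**
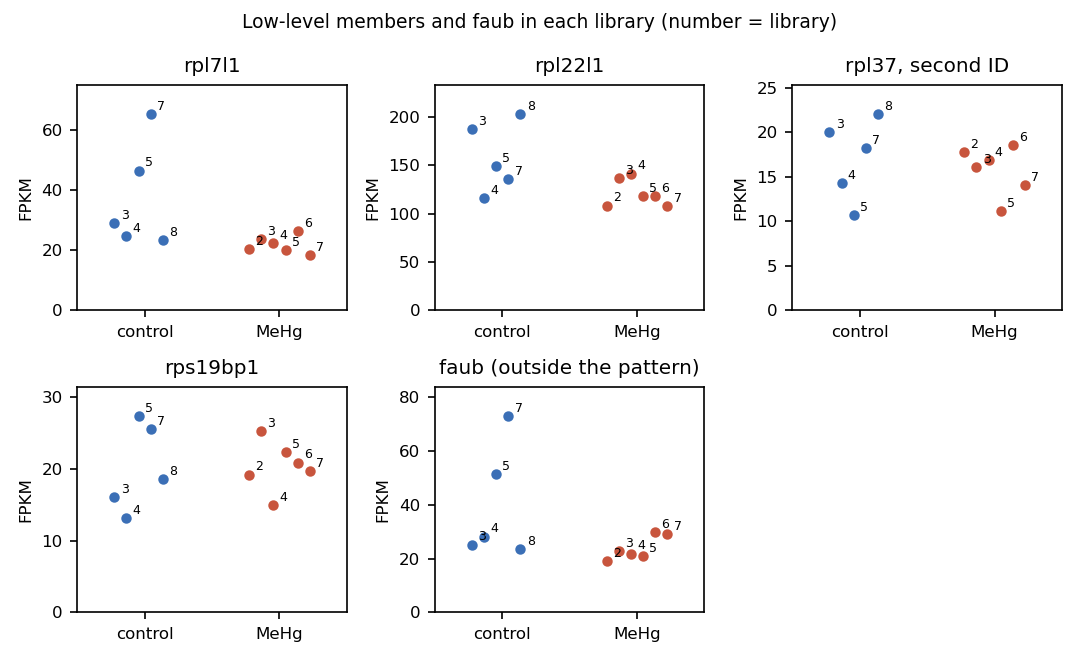
FPKM in each library, numbered, of 4 members under 200 FPKM and of faub, a ribosomal protein gene outside the symbol pattern, with the control lineage in blue and the MeHg lineage in red. Control libraries 5 and 7 stand high for rpl7l1, rps19bp1 and faub.

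Zebrafish keep some ribosomal proteins as paired copies, while rpl22l1 and rpl7l1 are like genes of rpl22 and rpl7. The ratio within a pair removes only a shift that both genes share. Of 6 pairs compared, 5 of them given here, none passed the test between the lineages after adjustment over the pairs (two-sided exact permutation test, smallest p the design allows 0.00216). The log2 ratio of rpl22l1 to rpl22 was -1.84 ± 0.15 (SD, n = 5) in the control and -2.13 ± 0.21 (SD, n = 6) in the MeHg lineage, a difference of -0.29 (exact permutation p = 0.0368, adjusted p = 0.221). The ratio of rpl7l1 to rpl7 was -4.47 ± 0.64 and -4.96 ± 0.47 (exact permutation adjusted p = 0.359). That ratio was lowest in MeHg library 4, at -5.54, and highest of the MeHg lineage in library 6, at -4.16, so it was not free of library differences. A further 3 pairs were near balance. The ratio of rps27.2 to rps27.1 was 0.09 ± 0.11 and 0.18 ± 0.06, that of rps26l to rps26 was 0.26 ± 0.11 and 0.28 ± 0.08, and that of rpl5b to rpl5a was -0.10 ± 0.20 and -0.19 ± 0.10. Copies of near-identical sequence can share fragments, so these levels are uncertain.

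Of 4 ribosomal protein genes whose symbols fall outside the pattern none passed. The laminin receptor homolog rpsa and gnb2l1 (Rack1, a scaffold on the small subunit) had differences of -0.10 ± 0.22 and -0.30 ± 0.23 (SE). The gene faub stood at 25.2, 28.2, 51.3, 72.9 and 23.4 FPKM in the controls and 19.0 to 29.8 FPKM in the MeHg lineage. As for rpl7l1, its high values were in control libraries 5 and 7 (difference -0.60, limma adjusted p = 0.208, and -0.11 without them). The reference names zgc:92868 as rpl29. Its difference was -0.05 ± 0.21 (SE), and its highest value of the MeHg lineage was 1421 FPKM, in library 3.

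The likeness of other genes to the profile was measured as the SD over the 11 libraries of a gene's deviation minus the median member's, for the 342 other genes of at least 200 FPKM, a measure added after the values were seen. The median abundant member had an SD of 0.09 and the loosest 0.20. The 5 nearest genes carried no symbol in the table or in the reference list, the first being ENSDARG00000030585 at 0.07 and ENSDARG00000039641 at 0.07. Next came rpsa and gnb2l1, both at 0.11, and zgc:92868 at 0.12. Further genes with a descriptive symbol among the nearest 20 were naca (a chaperone at the ribosomal exit tunnel, 0.13), hsp90ab1 (0.13), eif5a (0.14), eef1g (0.15), tpt1 (0.15) and tmsb4x (0.15).

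The rest of the translation machinery was described from lists of names. Of 14 genes on the elongation factor list none passed (median difference -0.25), and their library profile ran from 0.32 in control library 8 to -0.38 in MeHg library 6. Besides the factors this list holds the kinase gene eef2k and tpt1. The main elongation factor gene eef1a1l1 was at 1828 ± 469 and 1405 ± 509 FPKM. Without control libraries 5 and 7, 4 of the 14 passed. The genes eef2l2, eef1a1b and the kinase gene eef2k fell by 1.28, 1.09 and 0.76 on the log2 scale, and eef2a.1 rose by 1.18 (limma adjusted p = 0.00116, 0.00558, 0.0327 and 0.00762). Of 51 initiation factor genes 0 rose and 2 fell, eif2b3 by 0.63 and eif1ad by 0.56. Without those libraries only eif4g2a passed, and it rose by 0.45 (adjusted p = 0.0433). Of 10 S6 kinase genes none passed, and without those libraries rps6kal fell by 0.65 (adjusted p = 0.0168). The background share of genes lower in the MeHg lineage was 3.5%, and 4.65% without those libraries. The share higher was 5.47%, and 3.64% without them.

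Among genes of TOP mRNA control and the mTOR pathway, 0 of 24 rose and 1 fell, against 5.47% higher and 3.5% lower of all genes tested. Of the 24, only eif4ebp3l passed, a repressor of cap-dependent initiation, from 34.6 ± 15.5 to 12.2 ± 9.49 FPKM (log2 difference -1.63, limma adjusted p = 0.0475). Without control libraries 5 and 7 none of the 24 passed (eif4ebp3l -1.19, adjusted p = 0.233). The kinase gene mtor itself was at 7.17 ± 1.31 and 8.72 ± 1.25 FPKM (log2 difference 0.26, adjusted p = 0.315).

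Ribosome assembly genes held 9 calls with all 11 libraries and 3 without control libraries 5 and 7. Of 58 genes of ribosome biogenesis 0 rose and 9 fell, with a median of -0.53 and 57 negative. Of all genes tested 3.5% were called lower, 5.47% were called higher and 48.5% had a negative difference. Their level followed control libraries 5 and 7, where the median gene stood at 0.56 and 0.94 above its mean, against -0.31 to 0.12 in the other libraries. Without these libraries 3 of 58 passed, near the 4.65% of all genes called lower, and the median of the 58 was -0.25. These were nmd3, the export adaptor of the large subunit (-0.77, limma adjusted p = 0.0122), nop16 (-0.80, adjusted p = 0.0161) and noc4l (-0.68, adjusted p = 0.0319), all called in both fits. Of 12 RNA polymerase I genes polr1b alone fell (-0.86, adjusted p = 0.0484), and not without those libraries (adjusted p = 0.164). On the p53 list cdkn1a, which stops the cell cycle, rose from 2.08 to 4.52 FPKM in the controls to 3.24 to 9.15 FPKM in the MeHg lineage (log2 difference 1.02, adjusted p = 0.0230) as the only call of 15 genes. Without those libraries its adjusted p was 0.0881, and mdm2 fell (-0.48, adjusted p = 0.0450).

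The mitochondrial ribosome had another library profile. Of its 64 tested genes 0 rose and 2 fell, mrpl49 and mrps23, with a median of -0.21 and 51 negative. The 2 calls are near the background, since 3.5% of all genes tested were called lower. The share of negative differences, 51 of 64, was above the 48.5% of all genes tested, and was not tested. Values of the lineages did not overlap in 7.52% of all genes tested. The transcript of mrpl49 was at 38.6, 33.0, 32.5, 37.4 and 37.6 FPKM in the controls and at 23.1 to 27.4 FPKM in the MeHg lineage, with no overlap (log2 difference -0.46, limma adjusted p = 0.0166, and 0.0253 without control libraries 5 and 7). For mrps23 the difference was -0.83 (adjusted p = 0.0461), and -0.53 (adjusted p = 0.199) without them. In MeHg library 4, where cytosolic members were highest, the median mitochondrial member was lowest, at -0.30. In MeHg libraries 6 and 7 it stood at 0.13 and 0.15.

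**Figure D5:**
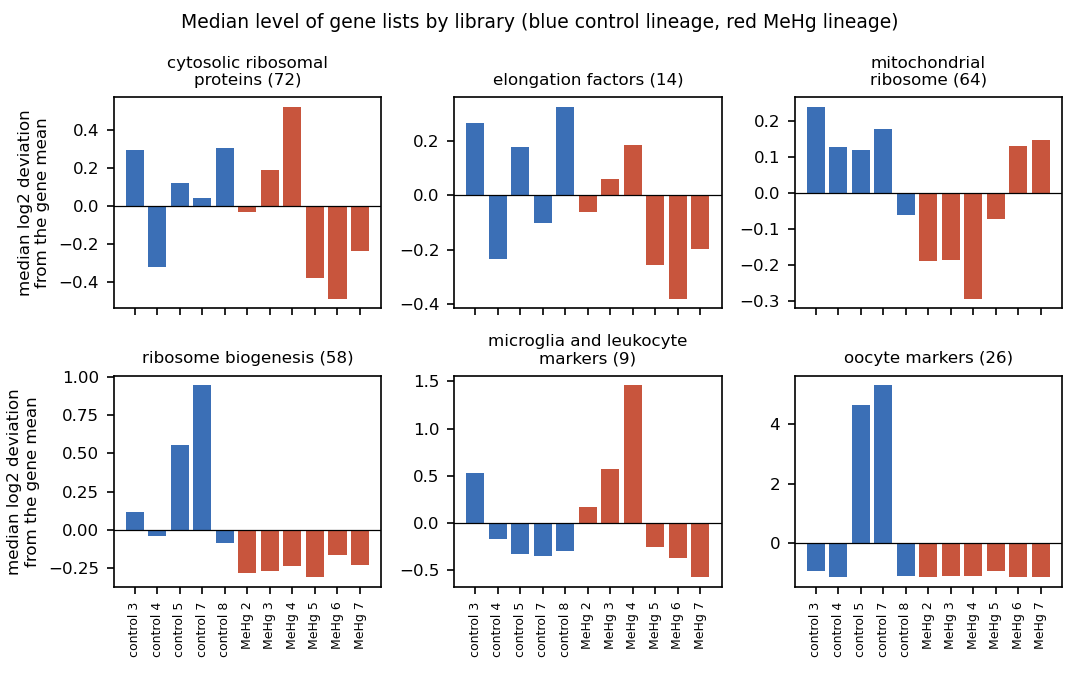
Median log2 deviation from the gene mean in each library for 6 gene lists, with the number of genes tested and a separate vertical scale in each panel. Elongation factors and cytosolic ribosomal proteins are both low in control library 4 and MeHg libraries 5 and 6, biogenesis genes and oocyte markers peak in control libraries 5 and 7, and leukocyte markers peak in MeHg library 4.

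Markers of other cells moved with the profile in part. All 9 tested markers of microglia and leukocytes were detected in every library, and 8 of the 9 had their highest MeHg value in library 4, csf1rb having it in library 3. Their summed level was 210 to 473 FPKM in the controls and 150 to 903 FPKM in the MeHg lineage. It was 903 FPKM in MeHg library 4, with cd74a at 453 and cd74b at 311 FPKM. The lowest sum was in MeHg library 7, beside 162 FPKM in library 6. Among the controls the median marker deviated by 0.53 in library 3 but by -0.30 in library 8, while the cytosolic members stood at 0.30 in both. None of the 9 passed between the lineages. The summed blood cell markers (5 genes, 1 of them at 0 throughout) ranged from 376 to 1336 FPKM and from 191 to 2770 FPKM, again with the maximum in MeHg library 4. The median deviation of the 4 tested was 0.78 there and -1.28, the lowest, in MeHg library 5. It was higher in MeHg library 2, at 0.92, and stood at 0.27 in MeHg library 6, where the cytosolic members were lowest. The median pigment epithelium marker was also highest in MeHg library 4, at 0.65. It stood at 0.63 in control library 3, -0.32 in control library 8 and 0.36 in MeHg library 7. Muller glia and cone markers were lowest of the MeHg lineage in library 4, at -0.32 and -0.02. Cone markers stood at 0.70 and 0.69 in MeHg libraries 6 and 7. The part of any of these cell types in the levels of ribosomal protein genes was not tested. Retinal identity was plain, with summed cone markers (11 genes) at 6819 to 18053 FPKM in the controls and 15782 to 20707 FPKM in the MeHg lineage. Calls were 5 higher and 2 lower of 11 cone markers, 1 higher and 3 lower of 12 rod markers, 0 higher and 1 lower of 8 Muller glia markers, and 2 higher and 1 lower of 9 pigment epithelium markers, with none for oocytes, muscle, blood or lens. Of all genes tested 5.47% were called higher and 3.5% lower. The rod list held rho, the rod opsin gene, which was listed at 0 in every MeHg library. Lens markers summed to at most 5.10 FPKM in any library, with 3 of 13 at 0 throughout.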

How the data were processed

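Retinal RNA was made into TruSeq libraries and read from both ends over 100 bases, per the labels' protocols. The submitters' processing notes name build Zv9, CASAVA 1.8.2, and, with versions not given in the sources used here, cutadapt, FastQC, TopHat and Cuffnorm. The authors deposited FPKM, and a table of scaled fragment numbers that is a signal, with values that were 98.4% to 98.8% whole multiples (within 0.01) of a step per library; the planned count tests were therefore not run, and the steps gave the depth. A column without a name, 1 in each file, was not used, and control number 1 was not analysed here.

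Genes averaging 0.5 FPKM or more were fitted with limma 3.58.1 in R 4.3.3 (log2(FPKM + 1), eBayes with a trend, Benjamini-Hochberg threshold 0.05) and the fit was tested on simulated data. Differences are MeHg minus control and understate those of low genes. Members and lists were chosen with earlier results of these data known. Named members were, by rule and apart from those not reported here, the called ones (at most 10) or the 5 smallest p in each direction, the 5 highest and 5 lowest levels and all paralogs, and up to 4 genes of other lists by p. Members named for their role, eef1a1l1, mtor and the split at 200 FPKM were chosen after values were seen. Shared replicate numbers gave no sign of pairing the samples, which were fitted as unpaired. The labels do not say that replicates came from separate fish, so p-values measure the spread between samples. Some members and genes outside the pattern entered every count but are not reported here by name.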

Additional observations from a re-analysis of the deposited data

Results flagged for a closer look

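Within a lineage, a library was singled out when its gap to the nearest other library exceeded the 95% critical value of Dixon's test for the range; chance flags about 5% of groups, and 70 groups were examined. For rps20 MeHg library 4 stood apart at 1656 FPKM. Control library 4 stood apart with 1.71% of its assigned fragments in the members. For gnb2l1 control library 4 stood apart at 461 FPKM.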

How the results depend on the processing

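No member was called in any of the 23 alternative fits except 1 of 72 without control libraries 5 and 7, and the members' median stayed negative except with log2 depth as a covariate and after rescaling to the members' median. Leaving out MeHg library 4 moved it to -0.27, control library 4 to -0.26, and MeHg library 6 to -0.08. Over all genes, 1112 higher and 712 lower calls became 2200 higher by the rescaling to equal sums, 716 higher without control libraries 5 and 7, 413 lower with the depth covariate, and 662 higher and 260 lower after the rescaling to the members' median. With 1 library left out they ranged from 705 to 1225 higher and from 472 to 905 lower, the lowest without control library 5. Same-numbered libraries had negative correlations (-0.20, -0.23, -0.01 and -0.13), and those of unlike number ran from -0.21 to 0.23. These values gave no sign of pairing by number, but so few cannot show that samples were handled apart. The fit with a replicate block on the 8 libraries of shared number called 113 higher and 86 lower genes, against 506 and 278 without the block on the same libraries.

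Without control libraries 5 and 7 calls were 1 of 64 for the mitochondrial ribosome, 1 of 10 for S6 kinases and 4 of 14 for elongation factors. They were 1 of 50 for initiation factors, 0 of 24 for TOP control and mTOR, and 3 of 58 for biogenesis. RNA polymerase I had 0 of 12, and the p53 list 1 of 15. For cell markers that fit called 1 higher and 4 lower of 12 for rods, and 4 higher and 2 lower of 11 for cones. It called 1 higher and 1 lower of 9 for pigment epithelium, and 2 lower of 8 for Muller glia. Of all genes tested in that fit 3.64% were called higher and 4.65% lower. The paralog difference of rps26l to rps26 was then -0.026, and, with 1 library left out, -0.019 to 0.049. Differences of single genes that missed the threshold changed sign as follows. By the rescaling to equal sums rps20 was 0.063, the second rpl37 0.026, rps27.2 0.039 and rpl22 0.054. With the depth covariate rpl31 was 0.0066, rpl35 0.078, rps27.2 0.10, rps27.1 0.030, rpl22 0.054, rps26l 0.0058 and rplp2l 0.069. With the replicate block rps20 was 0.041, rpl35 0.048, rpl22 0.024, rps26 0.00315 and rplp2l 0.044. By the median of ratios rps19bp1 was -0.020. With 1 library left out the ranges were -0.085 to 0.17 for rps19bp1, -0.20 to 0.071 for rps20, -0.23 to 0.015 for the second rpl37 and -0.16 to 0.00444 for rps27.2. The cause of these changes was not tested. The planned count tests were not run.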
